A study of Mus musculus with 9 samples.

Results

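Inflammatory chemokines are small secreted proteins that draw leukocytes into tissue. The 10 genes described here were grouped into classes. Ccl2, Ccl7, Ccl8 and Ccl12 are called monocyte attractants here, although mouse Ccl8 acts on CCR8, unlike the other members of that class. Ccl3, Ccl4 and Ccl6 are made largely by macrophages and other myeloid cells. Ccl5, Cxcl9 and Cxcl10 attract T and NK cells. All 10 genes were taken by exact gene symbol in the platform annotation, which gave 12 probe sets for them. In all, 45037 probe sets and 18193 genes were tested. All 10 genes were measured, and no filter on low values was applied to them. RNA came from frozen spleen tissue: 5 splenic lymphomas of Sca1-MALT1 transgenic mice and 4 spleens of healthy wild-type mice, each on 1 Affymetrix array. In this transgene, MALT1, a protease and scaffold that links antigen receptors to NF-kB, is driven by regulatory sequence of Sca1, a gene of stem and progenitor cells. The labels state no strain, age, sex or treatment, and do not say that the samples came from separate animals, so every p-value given below covers the spread among these 9 samples, which may be technical. The tissue was not sorted, so more or fewer cells of a type and more or less RNA per cell cannot be told apart.

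Chemokines carry an N-terminal cysteine motif, CC in the Ccl group and CXC in the Cxcl group, and act through G protein-coupled receptors. Ccl2, Ccl7 and Ccl12 act on CCR2 and bring monocytes out of the blood, whereas mouse Ccl8 acts on CCR8. Ccl3, Ccl5 and Ccl6 use CCR1. Cxcl9 and Cxcl10 are induced by interferon-gamma and act on CXCR3 of activated T and NK cells. In spleen, macrophages, dendritic cells, stroma and activated lymphocytes can all make such ligands.

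Mean levels of all 10 chemokines were higher in lymphoma than in wild-type spleen, where 50.3% of all genes tested had a positive difference. Ccl8 had the largest difference, 6.47-fold, and Ccl5, at 2.12-fold, was the 1 gene of the 10 called by limma at an adjusted p under 0.05. That rule called 0.407% of all genes as higher in lymphoma. At an unadjusted p under 0.05 limma had 6 of the 10 higher and 0 lower, against 6.69% of all genes higher. The same 6 genes (Ccl2, Ccl8, Ccl12, Ccl3, Ccl6 and Ccl5) had every lymphoma above every wild-type spleen, as did 3.29% of all genes. Of the 10 genes, 4 differed by at least 1 log2 unit (Ccl8, Ccl6, Ccl12 and Ccl5), against 1.36% of all genes in that direction. The median difference over the 10 genes was 0.79 on the log2 scale, beside 0.0012 over all genes tested. These comparisons are a description and no test of the set, because the 10 genes were chosen with earlier results of these data known.

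**Figure D1:**
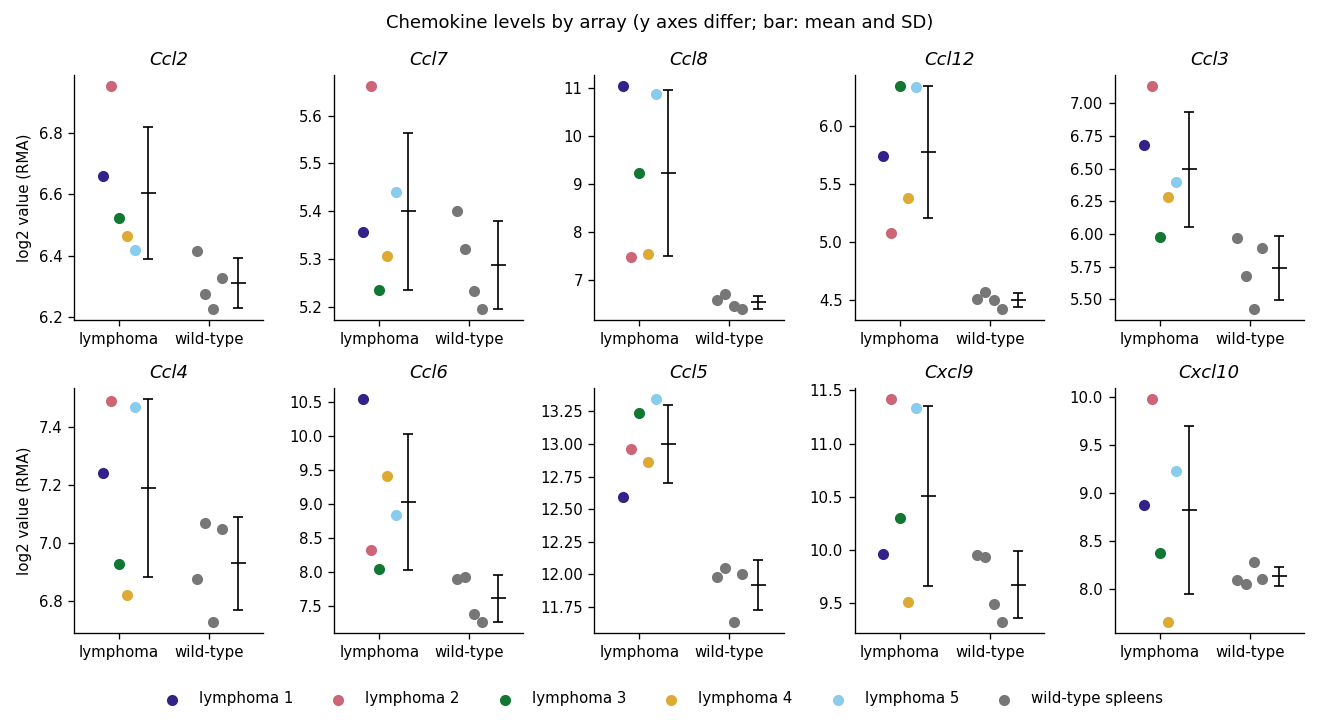
Log2 values (RMA) of the 10 chemokine genes in each of the 5 lymphomas (coloured by lymphoma number) and the 4 wild-type spleens (grey), with the mean and SD of each group as a bar. Ccl5 is tight in both groups with all lymphomas above 12.5, whereas Ccl8 spreads between 7.48 and 11.05 among the lymphomas and stays between 6.41 and 6.71 in the wild-type spleens.

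The 4 monocyte attractants differed widely in size. Ccl8 stood at 11.05, 7.48, 9.23, 7.54 and 10.87 in lymphomas 1 to 5, against 6.59, 6.71, 6.46 and 6.41 in wild-type spleens 1 to 4. Lymphomas 1 and 5 were highest, lymphoma 3 was intermediate and lymphomas 2 and 4 lay only 0.77 and 0.83 above the highest wild-type spleen. The mean was 9.24 ± 1.72 (SD, n = 5) in lymphoma and 6.54 ± 0.14 (SD, n = 4) in wild-type, a difference of 2.69 with a standard error of 0.75 (95% interval 1.01 to 4.38, limma adjusted p 0.152).

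Ccl12, a CCR2 ligand of mice with no direct human counterpart, stood at 5.74, 5.08, 6.34, 5.38 and 6.33 in lymphomas 1 to 5, against 4.51, 4.57, 4.50 and 4.42 in the wild-type spleens. As for Ccl8, lymphomas 1, 3 and 5 were above lymphomas 2 and 4, and the groups did not overlap. The difference was 1.27 with a standard error of 0.25 (95% interval 0.71 to 1.84, limma adjusted p 0.0625). The call of Ccl12 depended on the setting: its limma adjusted p was 0.00682 with array weights, 0.017 without lymphoma 2 and 0.2 without wild-type spleen 3. The probe set is dim, with only 15.5% of genes below its mean level, and RMA compresses differences near the background.

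Ccl2, the best known CCR2 ligand, stood at 6.66, 6.95, 6.52, 6.46 and 6.42 in lymphomas 1 to 5, against 6.42, 6.28, 6.23 and 6.33 in the wild-type spleens. The groups did not overlap, but lymphoma 5 exceeded wild-type spleen 1 by only 0.0022. The difference was 0.29 (95% interval 0.04 to 0.55, limma adjusted p 0.276), and lymphoma 2, the lowest lymphoma for Ccl8 and Ccl12, was the highest for Ccl2. Ccl7, a further CCR2 ligand, lay between 5.24 and 5.66 in the lymphomas and between 5.20 and 5.40 in the wild-type spleens, with lymphoma 2 again highest. The groups overlapped (limma adjusted p 0.635), and the interval of the difference, from -0.10 to 0.33, holds no difference above 1 log2 unit on this scale. The Ccl7 probe set is dim as well, with 17.1% of genes below its mean level, so the same compression applies to that interval. For Ccl2 that share was 32.2%.

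The CC chemokines lie in clusters. In the RefSeq table of assembly GRCm38.p6, Ccl2, Ccl7, Ccl11, Ccl12, Ccl8 and Ccl1 follow each other on mouse chromosome 11, and Ccl5, Ccl9, Ccl6, Ccl3 and Ccl4 form another run on it. Ccl11, an eosinophil attractant that sits between Ccl7 and Ccl12, differed by 0.01, and Ccl1, a CCR8 ligand next to Ccl8, by 0.09 (limma adjusted p 0.982 and 0.784). Within this row of 6 genes, the pair Ccl12 and Ccl8 had the 2 largest differences. Because both of these neighbours were highest in lymphomas 1, 3 and 5, the 250 bases before their transcript starts are given here from RefSeq (GRCm38.p6, plus strand, Ccl8 at chr11:82114935-82115184 and Ccl12 at chr11:82101595-82101844).

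The capitals mark the letters TATAAA, searched on both strands and held by 12.4% of the 32851 promoter windows of this length in the RefSeq table.
Ccl8: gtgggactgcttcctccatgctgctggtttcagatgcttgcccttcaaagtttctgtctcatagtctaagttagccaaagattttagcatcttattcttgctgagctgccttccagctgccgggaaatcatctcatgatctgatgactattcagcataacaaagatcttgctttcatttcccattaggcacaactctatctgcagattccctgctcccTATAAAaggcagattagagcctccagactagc
Ccl12: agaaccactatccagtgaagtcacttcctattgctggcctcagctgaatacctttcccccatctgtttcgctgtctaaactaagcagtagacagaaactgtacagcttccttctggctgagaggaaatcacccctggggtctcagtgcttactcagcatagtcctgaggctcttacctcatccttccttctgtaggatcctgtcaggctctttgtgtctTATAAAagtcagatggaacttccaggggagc
TATAAA begins 32 bases before the start of Ccl8 and 31 bases before that of Ccl12. Neither window holds a match to the NF-kB consensus, to the interferon-stimulated response element GAAANNGAAA or to the gamma-activated sequence TTCNNNGAA. These matches and their absence describe the letters of the windows only.

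**Figure D2:**
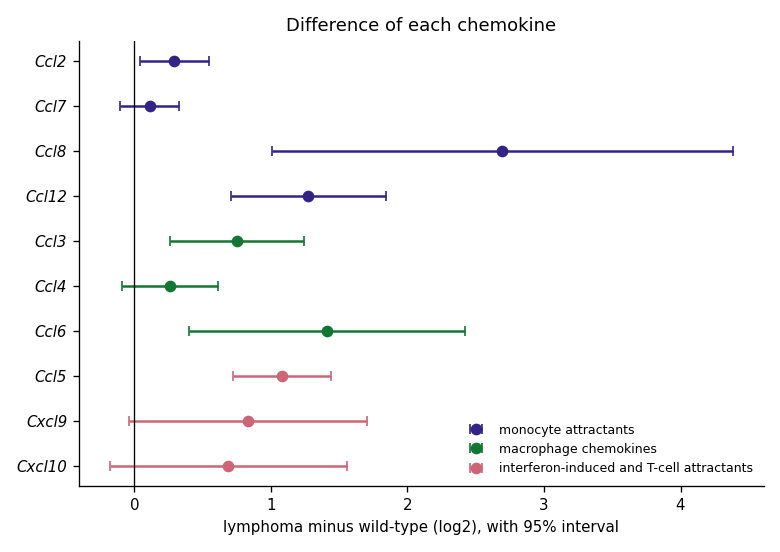
Difference in mean log2 value, lymphoma minus wild-type, for the 10 chemokine genes, with its 95% interval from limma and the vertical line at 0. The intervals of Ccl7, Ccl4, Cxcl9 and Cxcl10 include 0, and that of Ccl5, from 0.73 to 1.44, is narrower than that of Ccl8, from 1.01 to 4.38.

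Among the macrophage chemokines Ccl3, Ccl4 and Ccl6, Ccl6 differed most. Ccl6, a CCR1 ligand of mouse myeloid cells, stood at 10.54, 8.33, 8.05, 9.41 and 8.84 in lymphomas 1 to 5, against 7.90, 7.93, 7.39 and 7.27 in the wild-type spleens. Lymphoma 1 was highest, lymphoma 4 next, and lymphoma 3 lay 0.11 above the highest wild-type spleen. The difference was 1.41, or 2.66-fold (95% interval 0.40 to 2.42 on the log2 scale, limma adjusted p 0.202), and 1.03 without lymphoma 1. The second probe set of Ccl6, whose name ends in _s_at and which may match other transcripts, gave 2.73-fold and the same order of the lymphomas. Ccl9, its neighbour on chromosome 11 and also a CCR1 ligand, differed by 0.99 (limma adjusted p 0.344) and was highest in lymphoma 4 at 10.75.

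Ccl3, a CCR1 ligand of activated macrophages, stood at 6.68, 7.13, 5.98, 6.28 and 6.40 in lymphomas 1 to 5, against 5.97, 5.67, 5.43 and 5.89 in the wild-type spleens. Every lymphoma was above every wild-type spleen, lymphoma 3 by 0.0068. The difference was 0.75 (95% interval 0.26 to 1.24, limma adjusted p 0.165). The Ccl3 probe set is rather dim, with 27.9% of genes below its mean level and a wild-type mean of 5.74. RMA may therefore compress its difference too. Ccl4, which lies next to Ccl3 and which activated macrophages also make, stood at 7.24, 7.49, 6.93, 6.82 and 7.47 in the lymphomas, against 6.88, 7.07, 6.73 and 7.05 in the wild-type spleens. For Ccl4 lymphomas 1, 2 and 5 exceeded the wild-type range and lymphomas 3 and 4 lay inside it, with a difference of 0.26 (95% interval -0.09 to 0.61, limma adjusted p 0.487).

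Ccl5, which T and NK cells make and which draws T cells and monocytes, rose in lymphoma. It stood at 12.59, 12.96, 13.24, 12.86 and 13.34 in lymphomas 1 to 5, against 11.98, 12.05, 11.63 and 12.003 in the wild-type spleens. The lowest lymphoma was 0.54 above the highest wild-type spleen, and the SD was 0.30 in lymphoma (n = 5) and 0.19 in wild-type (n = 4). The difference was 1.08 with a standard error of 0.16 (limma adjusted p 0.0247), and the two-sided exact permutation p was 0.00794, the smallest that reassigning 5 and 4 arrays can give. Over all 45037 probe sets the adjusted p was 0.0291, and that fit called 0.251% of probe sets as higher in lymphoma. The call was lost when 1 of several arrays was left out: the adjusted p was 0.058 without lymphoma 5, and 0.0839, 0.0968, 0.111 and 0.0879 without wild-type spleens 1 to 4, while the difference stayed between 0.99 and 1.19 over all 9 such fits.

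The interferon-induced pair Cxcl9 and Cxcl10 did not pass. Cxcl9 stood at 9.97, 11.42, 10.30, 9.51 and 11.34 in lymphomas 1 to 5, against 9.95, 9.93, 9.49 and 9.32 in the wild-type spleens. Lymphomas 2, 5 and 3 were above the wild-type spleens by 1.46, 1.38 and 0.35, lymphoma 1 exceeded the highest wild-type spleen by 0.012, and lymphoma 4 lay within their range. The difference was 0.83 (95% interval -0.04 to 1.70, limma adjusted p 0.363), and the second probe set of Cxcl9 gave 1.85-fold against 1.78-fold. The interval of that second probe set, 0.19 to 1.58 on the log2 scale, left out 0 (limma adjusted p 0.253 over all probe sets). On it lymphoma 1 stood at 8.53, against 7.74 in the highest wild-type spleen, and lymphoma 4 again lay within the wild-type range.

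Cxcl10 stood at 8.87, 9.98, 8.37, 7.65 and 9.23 in lymphomas 1 to 5, against 8.09, 8.05, 8.28 and 8.10 in the wild-type spleens. Lymphoma 4 was below all wild-type spleens and the other 4 lymphomas were above them. The difference was 0.69 (95% interval -0.18 to 1.56, limma adjusted p 0.455), 0.98 without lymphoma 4 and 0.40 without lymphoma 2. Cxcl11, another CXCR3 ligand induced by interferon, had every lymphoma above every wild-type spleen and a difference of 1.35 that did not pass either (limma adjusted p 0.251). That difference was 0.87 without lymphoma 5 and 0.72 with the median over its probe sets. Cxcl11 was highest in lymphoma 5 at 9.97, and between 7.24 and 7.96 in the other lymphomas.

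Cxcl9 and Cxcl10 lie close together on mouse chromosome 5, separated in the RefSeq table by the gene Art3. Their windows of 250 bases before the start (GRCm38.p6, minus strand, Cxcl9 at chr5:92328080-92328329 and Cxcl10 at chr5:92348890-92349139) are shown because both genes were highest in lymphomas 2 and 5 and lowest in lymphoma 4. Capitals mark matches to TATAAA in Cxcl9, and to the NF-kB consensus and the interferon-stimulated response element in Cxcl10.
Cxcl9: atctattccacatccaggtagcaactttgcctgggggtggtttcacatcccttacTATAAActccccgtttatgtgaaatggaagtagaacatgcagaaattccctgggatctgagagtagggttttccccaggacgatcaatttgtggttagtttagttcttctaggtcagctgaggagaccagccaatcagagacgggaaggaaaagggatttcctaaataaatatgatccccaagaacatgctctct
Cxcl10: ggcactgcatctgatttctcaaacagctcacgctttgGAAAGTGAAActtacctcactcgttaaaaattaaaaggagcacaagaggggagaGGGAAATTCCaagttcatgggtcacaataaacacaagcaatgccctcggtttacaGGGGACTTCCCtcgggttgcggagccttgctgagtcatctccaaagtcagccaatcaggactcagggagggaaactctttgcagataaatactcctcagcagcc
In Cxcl10, GAAANNGAAA begins 213 bases before the start, and the NF-kB consensus begins at 159 bases and, as an overlapping pair of matches, at 104 and 103 bases before it. GAAANNGAAA is held by 2.98% and the NF-kB consensus by 9.55% of all such windows, each searched on both strands. The window of Cxcl9 holds no match to either, nor does any of these 4 windows match the gamma-activated sequence TTCNNNGAA, which 7.02% of windows hold. TATAAA begins 195 bases before the start of Cxcl9. As for Ccl8 and Ccl12, matches and their absence describe the letters of the windows only, and looser spellings were not searched.

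**Figure D3:**
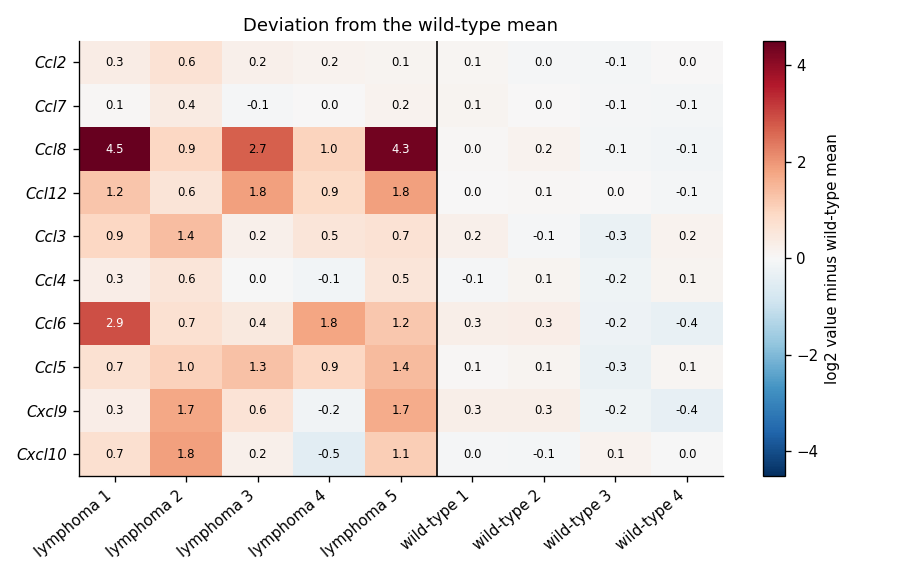
Log2 value of each chemokine in each array minus the mean of the 4 wild-type spleens, with lymphomas left and wild-type spleens right of the line; red is above and blue below the wild-type mean. Ccl8 and Ccl12 are highest in lymphomas 1, 3 and 5, and Cxcl9 and Cxcl10 in lymphomas 2 and 5.

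Set against each other as classes, monocyte attractants and interferon-induced and T-cell attractants differed in which arrays were highest. The median difference was 0.78 over the 4 monocyte attractants, 0.75 over Ccl3, Ccl4 and Ccl6, and 0.83 over Ccl5, Cxcl9 and Cxcl10. Among genes with a mean of at least 6, which leaves out the dim Ccl7 and Ccl12, the monocyte attractants had a median of 1.49. That value lies midway between Ccl2 at 0.29 and Ccl8 at 2.69, the only members left, and describes neither. The T-cell attractants again had a median of 0.83. By the mean deviation from the wild-type level, the monocyte attractants stood at 1.54, 0.63, 1.17, 0.51 and 1.61 in lymphomas 1 to 5, while the wild-type spleens lay between -0.07 and 0.07. The interferon-induced and T-cell attractants stood at 0.57, 1.54, 0.73, 0.10 and 1.40 in lymphomas 1 to 5, while the wild-type spleens lay between -0.11 and 0.10. By these means lymphoma 5 was high and lymphoma 4 low in both classes, whereas lymphoma 1 was high among the monocyte attractants and lymphoma 2 among the T-cell attractants. Single members differed from this. In lymphoma 1 Ccl8 deviated by 4.50 and Ccl12 by 1.24, but Ccl2 by 0.35 and Ccl7 by 0.07. For Ccl2 and Ccl7 lymphoma 2 was highest (0.64 and 0.37). For Ccl5 lymphomas 5 and 3 (1.43 and 1.32) were above lymphoma 2 (1.05). The difference between the classes was not tested.

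The members of a class did not move as 1 block. Over the 9 arrays, which share the group difference, Pearson's r was 0.93 between Ccl2 and Ccl3, 0.89 between Ccl8 and Ccl12, 0.90 between Ccl12 and Ccl5, and 0.87 between Cxcl9 and Cxcl10, as a description. Ccl2 and Ccl8 had an r of 0.35 and Ccl7 and Ccl12 one of 0.13. Across classes, Ccl7 had an r of 0.82 with Cxcl9 and 0.80 with Cxcl10, while Ccl8 had values of 0.49 and 0.44. Lymphoma 2 had the highest value of all lymphomas for 6 of the 10 chemokines (Ccl2, Ccl7, Ccl3, Ccl4, Cxcl9 and Cxcl10) and the lowest for 2 (Ccl8 and Ccl12). Lymphomas 2 and 5 exceeded the wild-type maximum for 10 of 10 chemokines, lymphoma 1 for 9, lymphoma 3 for 8 and lymphoma 4 for 6. The share of all genes above that maximum in each lymphoma was not computed, so these counts have no background to be read against.

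The receptors analysed did not pass. Of 5 receptors limma called 0. Only Ccr1 was below 0.05 unadjusted, where 14.7% of all genes passed in either direction. The list had a median difference of 0.40. Ccr1, on myeloid cells, averaged 9.65 ± 0.65 (SD, n = 5) in lymphoma and 8.57 ± 0.50 (SD, n = 4) in wild-type (limma adjusted p 0.202). The Ccr1 difference of 1.08 was 0.79 with the median over its probe sets and 0.85 without lymphoma 2. Ccr2, the receptor of monocytes, ranged from 8.04 to 10.06 in lymphoma, highest in lymphoma 1, and from 8.13 to 8.72 in wild-type (limma adjusted p 0.564). The Ccr2 difference of 0.51 was 0.24 without lymphoma 1 and 0.15 with the median over its probe sets. Cxcr3, the receptor of Cxcl9 and Cxcl10, stood at 9.30, 9.00, 11.16, 10.80 and 11.10 in lymphomas 1 to 5, against 9.73 to 10.02 in wild-type. Lymphoma 2, highest for both ligands, was lowest for their receptor. Atypical receptors take up chemokines without G protein signalling or present them. Of 5 such receptors limma called 0 and had 0 below 0.05 unadjusted, beside the same 14.7% of all genes. Ackr2, a scavenger of CC chemokines, differed by 0.62 and Ccrl2 by 0.43. Without lymphoma 2, Ackr2 stood at 0.38 and Ccrl2 at 0.26.

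Other inflammatory chemokines and the signals above them had median differences near 0, with single genes further away. Of 15 further chemokines limma called 0. Before adjustment 4 were higher and 0 lower at 0.05, where 6.69% of all genes were higher, and the median difference was 0.09. Cxcl11 and Ccl9, given above, had the largest differences. Of 15 measured cytokine, interferon and NF-kB genes limma called 0 (unadjusted, 3 higher and 0 lower at 0.05, beside the same 6.69% higher), with a median difference of -0.0010. Il10, which restrains macrophages, stood at 8.12, 6.38, 7.45, 6.29 and 6.88 in lymphomas 1 to 5, against 5.38, 5.21, 5.31 and 5.49 in the wild-type spleens (limma adjusted p 0.0637). Il10 was called in 6 of 22 alternatives, among them array weights and the fits without lymphoma 1, 2 or 4 (limma adjusted p 0.0389, 0.0335 and 0.0479). Ifng, the interferon-gamma gene, was highest in lymphomas 5 and 2, at 8.45 and 7.90, and lay between 6.97 and 7.55 in the other lymphomas, against 6.42 to 7.04 in wild-type (difference 0.88, limma adjusted p 0.183). Of 11 measured interferon-gamma targets limma called 0. Unadjusted, 1 was higher and 1 lower at 0.05, where 14.7% of all genes passed in either direction. The median difference was 0.15, with the GTPase gene Gbp2 at 0.76 and Ciita, the regulator of MHC class II, at -0.51. As a list they stood highest in lymphomas 5 and 2 (0.32 and 0.31) and lowest in lymphomas 1 and 4 (-0.22 and -0.07), against -0.02 to 0.03 in wild-type.

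Marker genes of other cell types differed beside these chemokines. Of 16 measured monocyte and macrophage genes limma called 7 higher (Cd68, Spic, Vcam1, Hmox1, C1qa, C1qb and C1qc) and 1 lower (Marco, -1.64), where it called 0.407% of all genes higher and 0.308% lower. Ly6c1 and Ly6c2, also on this list, were not measured, so these counts do not cover them. Over the alternatives, C1qa and C1qc were called in 22 of 22, and C1qb and Marco in 21 of 22, with limma adjusted p 0.0502 for C1qb without wild-type spleen 2 and 0.0545 for Marco without wild-type spleen 3. The other calls were less stable: Vcam1 was called in 18 of 22, Cd68 and Hmox1 in 16 of 22 and Spic in 11 of 21. Leaving out wild-type spleen 2, 3 or 4 ended the call of each of these 4 genes, as did leaving out wild-type spleen 1 or lymphoma 5 for Cd68, Hmox1 and Spic, and lymphoma 4 for Spic. C1qc, a complement chain of macrophages, averaged 11.78 ± 0.35 (SD, n = 5) in lymphoma and 9.44 ± 0.26 (SD, n = 4) in wild-type (limma adjusted p 0.00463). The mean deviation of this list was 1.26, 0.71, 0.62, 0.90 and 0.93 in lymphomas 1 to 5, against -0.10 to 0.06 in wild-type, with lymphoma 1 highest and lymphoma 3 lowest, as for Ccl6. Of 13 measured T and NK genes 1 was called higher (Gzmk, a granule protease gene, 3.0) and 0 lower. Unadjusted, 4 were higher and 2 lower at 0.05, where 14.7% of all genes passed in either direction. Of the 13 differences 7 were negative, and the median was -0.05. The 2 lower genes encode the CD8 chains, Cd8b1 (-1.69, limma adjusted p 0.151) and Cd8a (-1.0, limma adjusted p 0.233). The list stood at 0.52 and 0.47 in lymphomas 5 and 3, at 0.07 in lymphoma 4, and at -0.20 and -0.33 in lymphomas 2 and 1, against -0.06 to 0.06 in wild-type. Ccl5 was likewise highest in lymphomas 5 and 3 and lowest in lymphoma 1.

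Among the other lists, limma called 0 of the 8 measured B-cell genes. Unadjusted, 4 of them passed 0.05, all lower, where 14.7% of all genes passed it in either direction. Ms4a1, the B-cell gene of CD20, averaged 13.62 ± 0.44 (SD, n = 5) in lymphoma and 13.83 ± 0.07 (SD, n = 4) in wild-type. Fcer2a differed by -1.77 and Cr2 by -1.25, and the list deviated by -1.43 in lymphoma 1 and by -0.60 to -0.29 in the others, against -0.05 to 0.05 in wild-type. Of 9 measured neutrophil genes 0 were called and 7 were higher at an unadjusted p under 0.05, as were 6.69% of all genes. The list, with S100a9 at 3.41 and Lcn2 at 3.15 (2.07 without lymphoma 1), had a mean deviation of 0.03 to 5.61 in lymphoma and -0.28 to 0.39 in wild-type, highest in lymphoma 1 and lowest in lymphoma 4. Of 8 measured erythroid genes 0 were called and 1 was higher unadjusted, beside the same 6.69% of all genes. The list, with Rhag at 2.36 and Hbb-b2 at 2.33 (-0.15 without probe sets ending in _s_at or _x_at), ranged from -0.94 to 3.67 in lymphoma and from -0.40 to 1.15 in wild-type, highest in lymphomas 1 and 2. Clec1b, at 1.67, was called among 6 megakaryocyte and platelet genes, whose list deviation ran from -0.74 in lymphoma 4 to 2.89 in lymphoma 1, against -0.60 to 0.50 in wild-type. It kept its call in 13 of 22 alternatives and lost it without lymphoma 3, 4 or 5 or any 1 wild-type spleen (limma adjusted p 0.0538 to 0.163). The other lists had 0 calls, with Siglech at -0.58 and Cd209a at -0.62 for dendritic cells, Hdc at 0.46 and Mcpt8 at 0.45 for mast cells and basophils (0.24 and 0.14 without lymphoma 1), and Pdgfrb at 0.86 and Cxcl13 at -0.48 for stroma. Hdc stood at 1.47 with the probe set of largest SD. For dendritic cells (7 measured), mast cells and basophils (5) and stroma (8) the list deviation lay between -0.65 and 1.08 over all lymphomas. The part of any of these cells in the chemokine values was not tested.

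**Figure D4:**
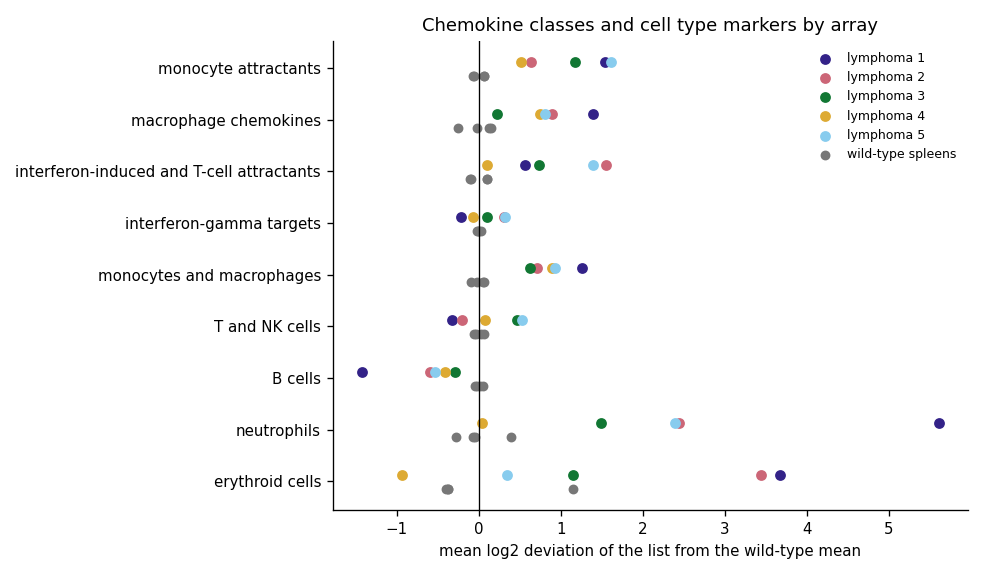
Mean log2 deviation from the wild-type mean in each array for the 3 chemokine classes, interferon-gamma targets and 5 lists of cell type markers, with lymphomas coloured by number and wild-type spleens grey below them. The macrophage list is above 0.6 in all 5 lymphomas, the B-cell list is below -0.2 in all 5, and T and NK genes lie on both sides of 0.

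The genes with the most similar pattern over the 9 arrays, by Pearson's r as a description, were found for the 6 chemokines whose groups do not overlap. For Ccl8 they were Ildr2 (0.98), the protease inhibitor gene A2m (0.97) and Abhd4 (0.96). For Ccl12 they were Fgl2 (0.97), Selenom (0.96) and Zfp105 (0.96). For Ccl5 they were Crtap (0.99), AW112010 (0.96) and Wipf3 (0.96), and of these Wipf3 was called (log2 difference 1.0, limma adjusted p 0.00816). For Ccl6 they were the amino acid transporter gene Slc38a3 (0.98), Aldh1l1 (0.97) and Fads3 (0.97). For Ccl2 they were C030013C21Rik (0.98), Sh3glb1 (0.98) and Arl2 (0.97), and for Ccl3 they were 3110040M04Rik (0.97), Cuedc2 (0.97) and Hmga2-ps1 (0.96).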

How the data were processed

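Per the labels' protocols, total RNA of 9 frozen spleen samples was labelled with biotin and hybridised to 1-colour Affymetrix arrays. The deposited log2 values are RMA values, as the submitters' processing notes name that tool; no source used here gives its version or settings. RMA subtracts background, equalises the arrays and combines the probes of a set. Array medians lay between 6.88 and 6.97, and the values were used as deposited.

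Of 45101 probe sets, 64 controls were left out. Names came from the platform annotation (34958 probe sets with 1 symbol, 932 with several, 9211 with none); only the first were named. The probe set with the highest mean stood for each of 18193 genes. The test was a two-sided limma fit (version 3.58.1, R 4.3.3, lmFit and eBayes) without covariates, with Benjamini-Hochberg adjustment over all genes and a threshold of 0.05; "called" means past it. The number of arrays limits the precision. The fit was tested on simulated data. Promoter windows are from RefSeq (6 of the 10 genes had one). Named list genes are those called, or the 2 with the largest difference; the 3 genes most like each chemokine were taken by Pearson's r. Values outside this rule (Ccl1, Ccl11, Cxcr3, Ms4a1, Cd8a and Cd8b1) were chosen after they were seen. The members and lists were chosen with earlier results of these data known. Alternatives covered probe set choice, a filter on dim genes, normalization, variance prior, weights, the replicate number, the Xist level and left-out arrays. Figures used matplotlib 3.10.9 in Python 3.11.15.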

Additional observations from a re-analysis of the deposited data

Results flagged for a closer look

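A gap test for a single far value was run on 84 groups, for the 10 chemokines and the named list genes, and it singled out 8 values; chance singles out about 1 in 20 groups. Among the chemokines, Ccl5 in wild-type spleen 3 stood at 11.63, with the nearest wild-type spleen at 11.98. Among the related genes, Cxcl11 in lymphoma 5 stood at 9.97, with the nearest lymphoma at 7.96, and Ackr2 in wild-type spleen 2 stood at 8.11, with the nearest at 8.45. Among the markers, Cr2 in lymphoma 1 at 10.73, Rhag and Hbb-b2 in wild-type spleen 1 at 7.07 and 7.63, and Mcpt8 in lymphoma 1 at 6.98, each apart from the rest of its group. Hmox1 in wild-type spleen 2 was at 8.70, only 0.11 below the other 3 wild-type spleens, which share 1 value of 8.81, so that the ratio of the gap to the range is 1 whatever the size of the gap.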

How the results depend on the processing

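All 10 chemokines kept a positive difference in every setting tried. The 130 called genes and 1 called chemokine (Ccl5, also 1 of 12 probe sets) became 532 genes, 3 chemokines and 3 probe sets with array weights, 315, 2 and 2 with 1 variance per group, and 601, 2 and 2 without lymphomas 1 and 2. A fit that adjusts for Xist gave 86 genes and 2 chemokines. With the replicate number as a block (replicate block), 7 genes, 0 chemokines and 0 probe sets were called, with 6 chemokines at an unadjusted p under 0.05 and a difference of 0.997 for Ccl5 (limma adjusted p 0.196). Lymphoma 5 has no wild-type partner, so that fit takes no group difference from it. The deviations of same-numbered samples from their group means had correlations of 0.12, -0.20, 0.14 and 0.0041. Lymphomas 1 and 3 matched the wild-type spleen of their own number best. Lymphoma 2 matched wild-type spleen 1 best, and lymphoma 4 wild-type spleen 2. With so few samples these values cannot decide whether the numbers pair them. Leaving out 1 array gave 10 to 328 genes, 0 to 2 chemokines and 0 to 2 probe sets, with the lowest count of genes without wild-type spleen 2 and the highest without lymphoma 2. The median of the monocyte attractants was 1.49 among genes with a mean of at least 6, which leaves out Ccl7 and Ccl12. Only Ccl2 at 0.29 and Ccl8 at 2.69 remain there. Hbb-b2 stood at -0.15 without probe sets ending in _s_at or _x_at. Ccl12 was called in 5 of 21 settings and Ccl8 in 1 of 22 (array weights, limma adjusted p 0.0289), and the cause was not tested.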

Other observations

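Among the chemokines outside the 10, Cxcl1 and Ccl17 also had every lymphoma above every wild-type spleen, and neither passed. Cxcl1, a neutrophil attractant, stood at 8.98, 8.74, 8.22, 8.30 and 8.26 in lymphomas 1 to 5, against 7.93, 7.89, 7.95 and 8.13 in the wild-type spleens, a log2 difference of 0.53 (limma adjusted p 0.190). It was highest in lymphoma 1, where neutrophil genes were also highest, and lowest in lymphoma 3. Ccl17, an attractant of CCR4-bearing T cells, lay between 6.48 and 6.69 in lymphoma and between 6.22 and 6.39 in wild-type, a log2 difference of 0.26 (limma adjusted p 0.170). The cytokine genes Il1b and Tnf, both NF-kB targets, did not pass either, with log2 differences of 0.54 and -0.20 (limma adjusted p 0.451 and 0.569). These 4 genes were chosen after their values were seen.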
